A study of Mus musculus with 9 samples.

Results

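The genes described here are 10 mouse genes of the CD8 and cytotoxic effector programme, namely Nkg7, Cd7, Klrd1, Xcl1, Ccl5, Gzma, Prf1, Eomes, Cst7 and Tbx21. They were taken by symbol from the 53715 genes of the deposited RNA-seq count table, and all 10 were present. The list was drawn up with the SRSF1KO and WT levels of these genes in view, so the differences between the groups are given below as a description. Calls that the fits over all genes made among the 10 are counted, but they are not independent evidence. Of the 10, 9 had enough reads to enter the model fitted across 17351 genes, and Eomes did not.

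The study sequenced RNA from thymocytes of C57BL/6 mice aged 6 to 8 weeks, sorted by flow cytometry as TCRβ+CD69+CD24+CD4+CD8+, a gate that holds CD4 CD8 double-positive cells that have received a T cell receptor signal. The SRSF1KO group had 2 libraries with the genotype Srsf1fl/flLckcre/+, in which Cre recombinase under Lck control removes the floxed splicing factor gene in T lineage cells, and the WT group had 3 libraries labelled WT with no other allele given. The labels do not say whether replicates came from separate animals or from pools, so p-values measure the spread between these libraries, which may not be that between animals. The 4 CLIP-seq samples of the series were not analysed here.

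The libraries held between 36026006 and 38985285 counts. Srsf1 itself, measured over the whole gene, stood at 42.6 and 30.9 CPM in SRSF1KO replicates 1 and 2, against 96.9, 122.7 and 103.1 CPM in WT replicates 1, 2 and 3. CPM are counts scaled to library size after trimmed-mean (TMM) normalisation. The gate genes Cd8a and Cd8b1 were abundant in every library, at 1291 to 1820 CPM in SRSF1KO and 1518 to 1829 CPM in WT. Cd4, also a gate gene, stood at 1229 and 1118 CPM in SRSF1KO, above the 881, 767.1 and 932.2 CPM of WT (edgeR adjusted p = 0.136, DESeq2 adjusted p = 0.00475). Cd69 stood at 226.2 and 228.5 CPM in SRSF1KO and 203.5, 469.3 and 270.6 CPM in WT, which overlap (log2 fold change -0.47). The gate genes Cd24a, Trbc1 and Trbc2 overlapped as well. Sex-linked transcripts placed SRSF1KO replicate 1 and WT replicate 2 in a male pattern and the other 3 libraries in a female pattern, so each group held both. The 2 SRSF1KO libraries were therefore not repeats of the same sample.

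Cytotoxic lymphocytes kill by releasing granules at the contact with a target cell. Perforin opens the membrane and granzymes enter through it, while membrane proteins of the granule and cathepsins with their inhibitors set how the cargo is processed and released. Most of this programme belongs to mature CD8 T cells and natural killer cells. In the thymus, parts of it appear as selected cells take the CD8 lineage, under Runx and T-box transcription factors.

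The 300 bases around the transcription start of 4 of these genes are shown. Nkg7, Xcl1 and Cst7 lay below WT in both SRSF1KO libraries, whereas Gzma lay above it. Tbx21 also lay below WT in both, and its promoter was at hand but is not shown. The sequences are RefSeq's, build GRCm38.p6, given 5′ to 3′ on the strand of the gene, with 250 bases before and 50 after the start. Capitals mark any match on either strand to TGTGGT (a RUNX motif), GGTGTGA (a T-box motif), GGAAGT (an ETS motif), TGANTCA (an AP-1 motif) or the interferon-stimulated response element.
Nkg7 (chr7:43436888-43437187, + strand): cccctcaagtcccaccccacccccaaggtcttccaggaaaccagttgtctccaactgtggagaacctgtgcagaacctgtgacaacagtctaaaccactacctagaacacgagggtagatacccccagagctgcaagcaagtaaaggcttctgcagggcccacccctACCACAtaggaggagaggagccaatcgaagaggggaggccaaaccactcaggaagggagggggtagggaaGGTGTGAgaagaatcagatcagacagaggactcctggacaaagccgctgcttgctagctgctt
Xcl1 (chr1:164935473-164935772, - strand): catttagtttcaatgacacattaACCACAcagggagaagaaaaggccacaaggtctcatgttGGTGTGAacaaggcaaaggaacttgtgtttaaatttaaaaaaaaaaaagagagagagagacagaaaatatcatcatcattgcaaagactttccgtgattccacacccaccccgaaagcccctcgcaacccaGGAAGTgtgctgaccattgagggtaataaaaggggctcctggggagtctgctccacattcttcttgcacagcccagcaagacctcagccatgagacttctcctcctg
Cst7 (chr2:150570165-150570464, + strand): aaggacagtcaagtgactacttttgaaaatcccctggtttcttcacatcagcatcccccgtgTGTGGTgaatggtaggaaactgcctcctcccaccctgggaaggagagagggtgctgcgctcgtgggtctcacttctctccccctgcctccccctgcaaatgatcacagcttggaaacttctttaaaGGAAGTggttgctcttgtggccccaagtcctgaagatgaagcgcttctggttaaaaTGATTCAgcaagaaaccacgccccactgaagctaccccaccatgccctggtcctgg
Gzma (chr13:113100932-113101231, - strand): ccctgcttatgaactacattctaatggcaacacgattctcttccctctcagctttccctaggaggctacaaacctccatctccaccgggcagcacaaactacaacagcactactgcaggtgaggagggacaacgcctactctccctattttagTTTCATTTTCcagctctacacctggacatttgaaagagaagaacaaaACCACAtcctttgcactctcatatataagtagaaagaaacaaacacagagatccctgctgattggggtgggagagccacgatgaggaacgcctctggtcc

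Promoter sequences were at hand for 7 of the 10 genes, and TGTGGT was in 5 of these 7, those of Nkg7, Xcl1, Cst7, Prf1 and Gzma. It was in 16.8% of 32841 promoters of the same length. The Gzma promoter therefore shared this motif with those of Nkg7, Xcl1 and Cst7, whose genes lay below WT. That of Tbx21, also below WT, lacked it. The T-box motif GGTGTGA was in those of Nkg7 and Xcl1, and in 3.98% of all promoters. GGAAGT was in those of Xcl1, Cst7, Prf1 and Tbx21, and in 23.8% of all. The interferon element was in the promoters of Gzma and Eomes, against 3.44% of all, and the AP-1 motif was in that of Cst7, against 7.81% of all. No motif overlapped another in the 4 sequences shown. These are matches of letters and not measured binding.

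**Figure D1:**
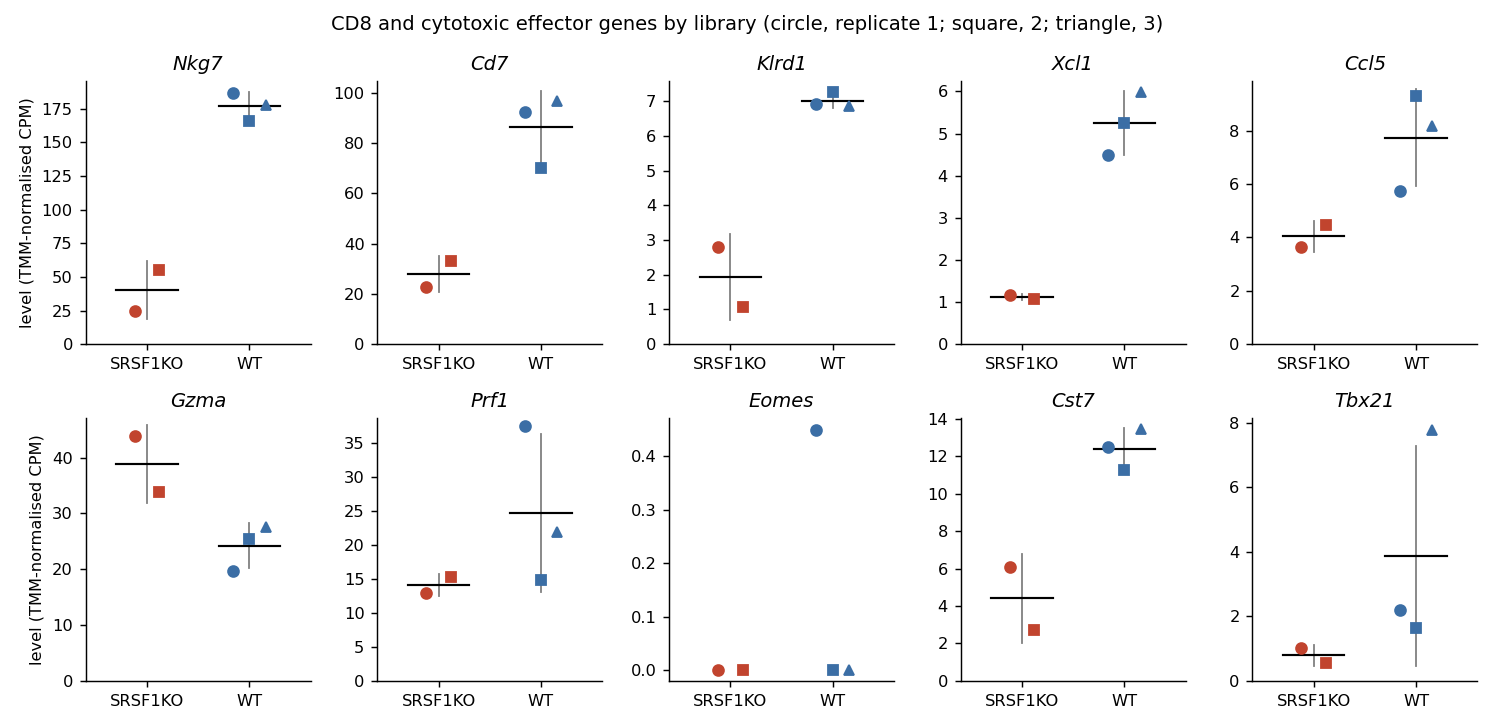
Level of each of the 10 genes in TMM-normalised CPM (y axis, a separate scale per gene) in SRSF1KO (red) and WT (blue) libraries, with the group mean as a line and ± 1 SD as a grey bar, except for Eomes, which is shown as points alone. For Nkg7, Cd7, Klrd1, Xcl1, Ccl5, Cst7 and Tbx21 both red points lie below the blue ones, for Gzma both lie above, and for Prf1 and Eomes the groups overlap.

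In 7 of the 9 fitted genes both SRSF1KO libraries lay below all 3 WT libraries, in 1 (Gzma) they lay above, and in 1 (Prf1) the groups overlapped. Among all 17351 genes, both SRSF1KO libraries lay below WT in 17.8% and above WT in 15.2%, so the groups did not overlap in 32.9%. The median log2 fold change of the 9 genes was -1.63, beside -0.01 over all genes. The edgeR quasi-likelihood fit called 1 of the 9 lower, Cd7, and 0 higher, where it called 0.213% of all genes lower and 0.0519% higher (0.265% in either direction) at an adjusted p under 0.05. DESeq2 called 5 lower (Nkg7, Cd7, Xcl1, Klrd1 and Cst7), and 0 higher, beside 3.87% and 2.34% of the 16337 genes that it gave an adjusted p. At an unadjusted p under 0.05, edgeR had 7 of the 9 lower and 1 higher, beside 8.45% and 5.90% of all genes. The edgeR call of Cd7 was lost without WT replicate 1, 2 or 3 and without SRSF1KO replicate 1. In those fits 0 listed genes were called without a WT library, and Nkg7 was called without SRSF1KO replicate 1. As the list was chosen from this contrast, nothing is read from these counts. In bulk libraries a lower level from fewer cells that express a gene and one from less RNA per cell cannot be told apart.

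Nkg7, a membrane protein of cytotoxic granules that is needed for their release (chromosome 7, 43437138 to 43438246, GRCm38), was the most abundant of the 10 genes in WT. It stood at 25.0 and 55.2 CPM in SRSF1KO replicates 1 and 2, against 186.6, 165.9 and 177.5 CPM in WT replicates 1, 2 and 3. The WT libraries lay within a factor of 1.12 from lowest to highest, and the SRSF1KO libraries lay far below them but differed from each other, replicate 1 holding 0.453 of the level of replicate 2. The means were 40.1 ± 21.4 CPM in SRSF1KO (SD, n = 2) and 177 ± 10.4 CPM in WT (SD, n = 3). The log2 fold change was -2.14 ± 0.31 (SE), with -1.68 left when SRSF1KO replicate 1 was omitted and -2.80 when replicate 2 was.

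Cd7, an immunoglobulin superfamily glycoprotein on T and natural killer cells (chromosome 11, 121036747 to 121039478), stood at 22.8 and 33.04 CPM in SRSF1KO replicates 1 and 2, against 92.4, 70.2 and 96.7 CPM in WT replicates 1, 2 and 3. The highest SRSF1KO library held less than the lowest WT library, and WT replicate 2 was the lowest of its group. Its log2 fold change was -1.63 ± 0.22 (SE).

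Klrd1 encodes CD94, the partner chain of NKG2 receptors that bind the class I molecule Qa-1 (chromosome 6, 129588092 to 129598775). It stood at 2.80 and 1.06 CPM in SRSF1KO replicates 1 and 2, against 6.92, 7.25 and 6.86 CPM in WT replicates 1, 2 and 3. WT varied least for this gene among the 9, by a factor of 1.06, while SRSF1KO replicate 1 was 2.64 times replicate 2. The SRSF1KO values rest on 101 and 38 reads, and the log2 fold change was -1.86 ± 0.51 (SE). It was -2.72 without SRSF1KO replicate 1 and -1.30 without SRSF1KO replicate 2.

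The genes of the granule contents did not share a direction. Gzma, the tryptase granzyme A (chromosome 13, 113093824 to 113100981), stood at 43.8 and 33.9 CPM in SRSF1KO replicates 1 and 2, against 19.7, 25.5 and 27.5 CPM in WT replicates 1, 2 and 3. It was the only one of the 10 with both SRSF1KO libraries above WT, at a mean of 38.9 ± 6.98 CPM in SRSF1KO (SD, n = 2) and 24.2 ± 4.06 CPM in WT (SD, n = 3). The log2 fold change was 0.68 ± 0.22 (SE). Of 6 gamma-delta T cell markers, Trdc, the constant segment of the T cell receptor delta chain, was likewise above WT in both SRSF1KO libraries, at 56.9 and 43.9 CPM in SRSF1KO and 27.5, 30.6 and 32.2 CPM in WT. The other 5 overlapped between the groups. Log2 fold changes were 0.29 for Tcrg-C1, 0.22 for Tcrg-C2, 0.35 for Tcrg-C4 and 0.94 for Blk. Sox13 was at -0.57, on 2 and 94 reads in SRSF1KO replicates 1 and 2. The part of such cells in the Gzma level was not tested. Cdc20b, whose coordinates overlap Gzma, had at most 6 reads in any library.

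Prf1, the pore-forming protein perforin (chromosome 10, 61297751 to 61304684), stood at 12.96 and 15.25 CPM in SRSF1KO replicates 1 and 2, against 37.5, 14.8 and 21.9 CPM in WT replicates 1, 2 and 3. WT replicate 2 lay between the SRSF1KO libraries, and the highest WT library was 2.52 times the lowest. The log2 fold change was -0.81 ± 0.39 (SE), and -0.37 without WT replicate 1.

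Cst7 encodes cystatin F, an inhibitor of the cathepsins that process granzymes (chromosome 2, 150570415 to 150578944). It stood at 6.08 and 2.74 CPM in SRSF1KO replicates 1 and 2, against 12.5, 11.3 and 13.5 CPM in WT replicates 1, 2 and 3. As with Klrd1, WT was tight and SRSF1KO replicate 2 was the lower of its pair, replicate 1 being 2.22 times as high. The log2 fold change was -1.49 ± 0.40 (SE), with -2.18 left when SRSF1KO replicate 1 was omitted and -1.01 when replicate 2 was.

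Both chemokines lay below WT. Xcl1, lymphotactin, which attracts dendritic cells that carry XCR1 (chromosome 1, 164931644 to 164935522), stood at 1.165 and 1.063 CPM in SRSF1KO replicates 1 and 2, against 4.49, 5.25 and 6.00 CPM in WT replicates 1, 2 and 3. Here the SRSF1KO libraries nearly coincided, on 42 and 38 reads, and the log2 fold change of -2.23 ± 0.46 (SE) moved least when single libraries were left out, lying between -2.32 and -2.11.

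Ccl5, a chemokine that effector and memory CD8 T cells secrete (chromosome 11, 83525778 to 83530518), stood at 3.63 and 4.45 CPM in SRSF1KO replicates 1 and 2, against 5.73, 9.29 and 8.18 CPM in WT replicates 1, 2 and 3. The gap between SRSF1KO replicate 2 and WT replicate 1 was small beside the spread within WT, and the log2 fold change was -0.94 ± 0.37 (SE).

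Both transcription factors of the list, the T-box proteins T-bet and Eomesodermin, which drive the cytotoxic programme in effector T and natural killer cells, were scarce. Tbx21, the T-bet gene (chromosome 11, 97098007 to 97115331), stood at 1.03 and 0.56 CPM in SRSF1KO replicates 1 and 2, on 37 and 20 reads, against 2.19, 1.65 and 7.79 CPM in WT replicates 1, 2 and 3. WT replicate 3 alone carried most of the WT mean. The log2 fold change was -2.28 ± 0.85 (SE) with all libraries and -1.26 without WT replicate 3. Eomes (chromosome 9, 118478186 to 118486132) had 0 reads in both SRSF1KO libraries and in WT replicates 2 and 3, and 17 reads in WT replicate 1. A count of 0 allows up to 3 reads, or 0.0839 CPM in SRSF1KO replicate 2. With WT at 0 in 2 of 3 libraries no fold change is given.

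**Figure D2:**
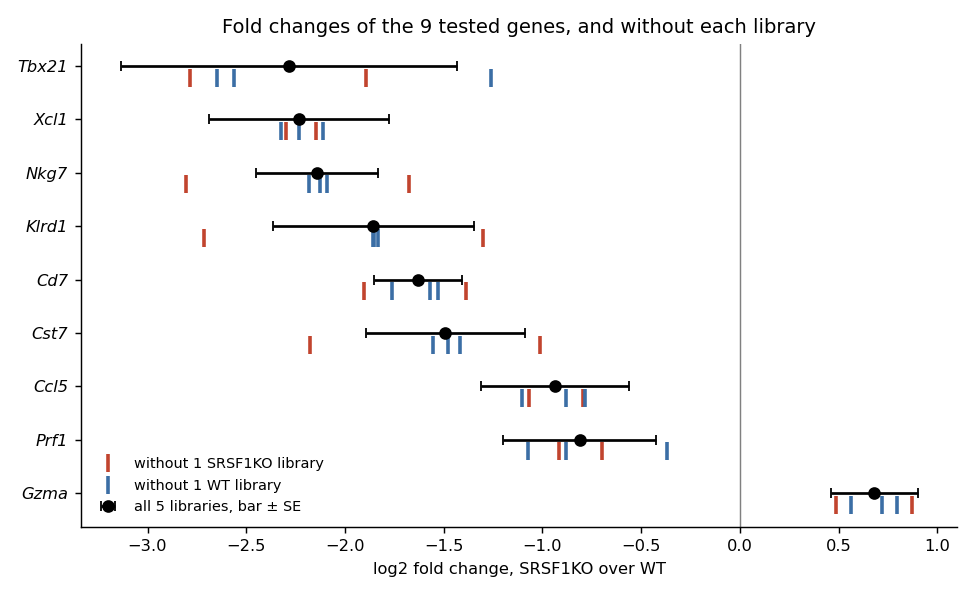
Log2 fold change of SRSF1KO over WT (x axis) for the 9 genes that entered the fit, as a black point ± SE, with the values after omission of 1 SRSF1KO library (red ticks) or 1 WT library (blue ticks). Gzma lies right of 0 in every fit and the other 8 lie left of it. The red ticks of Nkg7, Klrd1 and Cst7 spread widely, and 1 blue tick of Tbx21 stands apart at -1.26.

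Which SRSF1KO library was the lower differed from gene to gene. Of the 7 genes below WT in both, 3 (Nkg7, Cd7 and Ccl5) were lower in SRSF1KO replicate 1 and 4 (Klrd1, Xcl1, Cst7 and Tbx21) were lower in SRSF1KO replicate 2. Xcl1 differed little, at 42 and 38 reads in SRSF1KO replicates 1 and 2. In 4 of the 9 genes the SRSF1KO libraries were over 1.5-fold apart, and in 3 of 9 (Ccl5, Prf1 and Tbx21) the WT libraries were. The median ratio of the higher to the lower SRSF1KO library was 1.45 over the 9 genes and 1.29 over all genes, and the median ratio of the highest to the lowest WT library was 1.38 and 1.44.

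Every one of the 9 genes kept its direction within each pattern of sex-linked transcripts, where SRSF1KO has 1 library, and these differences were not tested. The female pattern holds 1 SRSF1KO and 2 WT libraries, and the male pattern 1 of each. Within the female pattern the log2 difference was -1.72 for Nkg7, -1.51 for Cd7, -2.64 for Klrd1, -2.23 for Xcl1 and -0.62 for Ccl5. Within the male pattern it was -2.73 for Nkg7, -1.62 for Cd7, -1.36 for Klrd1, -2.12 for Xcl1 and -1.34 for Ccl5. The difference of Nkg7 and Ccl5 was larger in size in the male pattern and that of Klrd1 in the female one. Gzma was higher by 0.54 in the female and 0.78 in the male pattern. Cst7 was at -2.22 in the female and -0.89 in the male pattern, and Tbx21 at -2.77 in the female and -0.66 in the male. Prf1 was at -0.91 in the female pattern and only -0.19 in the male.

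The genes nearest to this list in profile were Trappc6a, Smpd5, Ccs, Tcea2 and Slc25a24, picked from 8750 genes outside all lists by the root mean square difference between a gene's centred log2 CPM over the 5 libraries and the mean of the 9 genes. Their differences were 0.08 to 0.14 log2 units. Trappc6a, a subunit of a vesicle-tethering complex, stood at 13.2 and 10.8 CPM in SRSF1KO, against 32.96, 28.0 and 34.2 CPM in WT. Ccs, the copper chaperone of superoxide dismutase, stood at 25.2 and 19.6 CPM in SRSF1KO, against 58.5, 43.9 and 58.2 CPM in WT. Neither was called by edgeR (adjusted p = 0.0637 and 0.0712), and both were called by DESeq2 (adjusted p = 9.6e-07 and 4.9e-06). The 5 libraries form only 2 groups, so the measure takes in the difference between the groups.

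Companion genes of the same biology, 146 in 7 lists, were read beside the 10, and like them were listed with earlier results known. Of 120 that entered the fit, edgeR called 1 lower and 0 higher at an adjusted p under 0.05. DESeq2 called 23 lower and 10 higher, beside 3.87% and 2.34% of the 16337 genes that it gave an adjusted p. Their median log2 fold change was -0.10, and both SRSF1KO libraries lay below WT in 34 of them and above WT in 23. Dapl1, Fasl, Ccl9, Klra1 and Xcr1, described below, passed the filter on low counts through their WT reads. All are among the 34, and all but Klra1 among the 23 that DESeq2 called lower, where they carry no weight of their own. The shares over all genes, 17.8% below and 15.2% above, stand behind the counts of each list that follows. So do the edgeR shares at an unadjusted p under 0.05, 8.45% lower and 5.90% higher, and the DESeq2 shares above.

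Ctsw, a cathepsin of CD8 T and natural killer cells in the list of CD8 coreceptor and lineage genes, was the gene that edgeR called. It fell to 98.5 and 143.8 CPM in SRSF1KO replicates 1 and 2, against 319.9, 296.1 and 353.9 CPM in WT replicates 1, 2 and 3, a log2 fold change of -1.42 ± 0.18 (SE, edgeR adjusted p = 0.0483). The edgeR call was lost without WT replicate 1, 2 or 3 (adjusted p = 0.211, 0.162 and 0.220) and without SRSF1KO replicate 1 (adjusted p = 0.0843). Over all alternatives the adjusted p ranged between 6.1e-13 with DESeq2 and 0.314, and the log2 fold change between -1.70 and -1.17.

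All 16 CD8 coreceptor and lineage genes entered the fit, with 4 wholly below WT, 8 wholly above (beside 17.8% and 15.2% of all genes) and a median of 0.17 on the log2 scale. The coreceptor chains overlapped between the groups, at a log2 fold change of -0.02 ± 0.12 for Cd8a and -0.06 ± 0.13 for Cd8b1 (SE, edgeR adjusted p = 0.972 and 0.904). Their signs turned when some libraries were left out, and that of Cd8a also with upper-quartile scaling. Runx3, the transcription factor that silences Cd4 and supports the CD8 fate, stood at 38.3 and 57.8 CPM in SRSF1KO, against 118.7, 102.4 and 110.9 CPM in WT (log2 fold change -1.20 ± 0.19). All SRSF1KO values lay below WT, and the edgeR adjusted p of 0.0637 missed the threshold that DESeq2 passed (4.8e-07). DESeq2 called 4 of the 16 lower, among them the integrin chain gene Itgae, and 5 higher, among them Runx1, Bcl11b and Satb1, all named after their values were seen. Dapl1, also named after its values were seen, had 27 and 0 reads in SRSF1KO and 157, 150 and 118 in WT. It passed the filter on low counts through its WT reads. Dapl1 is among the 4 wholly below WT and the 4 that DESeq2 called lower, where it carries no weight of its own.

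Of 21 granule protease and cargo genes 13 entered the fit, 3 wholly below and 2 wholly above WT, where 32.9% of all genes did not overlap, with a median log2 fold change of -0.08 and 0 edgeR calls (1 lower and 1 higher at an unadjusted p under 0.05, and the same numbers by DESeq2). The median was 0.08 without SRSF1KO replicate 2 and 0.008 without WT replicate 3, so its sign is not stable. Gzmb, granzyme B, stood at 2.22 and 1.51 CPM in SRSF1KO and 1.14, 2.45 and 4.36 CPM in WT, so the groups overlapped. Gzmm, granzyme M, stood at 1.28 and 1.82 CPM in SRSF1KO and 0.45, 0.22 and 0.68 CPM in WT, above WT in both on 8 to 65 reads (log2 fold change 1.78 ± 0.86, edgeR adjusted p = 0.400). Gzmk had at most 10 reads in a library. Calr, a chaperone also found in granules, had a log2 fold change of -0.45 ± 0.11 and Ctsl, a lysosomal cathepsin, one of 0.60 ± 0.16 (SE, edgeR adjusted p = 0.150 and 0.174).

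Of 19 genes that move and release granules 16 entered the fit, 3 wholly below and 5 wholly above WT, with a median log2 fold change of 0.12 and 0 edgeR calls (1 lower and 1 higher at an unadjusted p under 0.05, and the same by DESeq2). Unc13d, which primes granules for release, stood at 102 and 130 CPM in SRSF1KO and 194, 152 and 167 CPM in WT, below WT in both (log2 fold change -0.55 ± 0.15, edgeR adjusted p = 0.180). Lamp2, a lysosomal membrane protein, stood at 93.7 and 99.1 CPM in SRSF1KO, above the 60.3, 70.1 and 64.4 CPM of WT (0.57 ± 0.12, edgeR adjusted p = 0.125).

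Of 15 death ligand and effector cytokine genes 9 entered the fit, 6 of them wholly below WT and 0 wholly above (beside 17.8% and 15.2% of all genes), with a median of -0.68 on the log2 scale. The median was -1.10 without SRSF1KO replicate 1, -1.34 without SRSF1KO replicate 2 and -0.43 without WT replicate 3, with 12, 13 and 8 genes in these fits. EdgeR called 0, with 5 lower and 0 higher at an unadjusted p under 0.05, and DESeq2 called 4 lower. Fasl, the ligand of the death receptor Fas, had 4 and 13 reads in SRSF1KO, against 80, 61 and 93 in WT, for a log2 fold change of -3.11 ± 0.86 (SE), -2.50 without SRSF1KO replicate 1 and -4.16 without SRSF1KO replicate 2. Fasl passed the filter on low counts through its WT reads, so its fold and its DESeq2 call carry no weight of their own. The same holds for Ccl9, named after its values were seen, with 0 and 0 reads in SRSF1KO and 1, 52 and 32 in WT. Both are among the 6 below WT, the 5 at an unadjusted p under 0.05 and the 4 DESeq2 calls, so these counts carry the same limit. Ltb, lymphotoxin beta, stood at 367 and 453 CPM in SRSF1KO and 645, 655 and 674 CPM in WT (-0.68 ± 0.11, edgeR adjusted p = 0.0641). Ifng had no more than 8 reads in any library.

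Of 29 killer-cell receptor and adaptor genes 21 entered the fit, 7 wholly below and 3 wholly above WT, with a median log2 fold change of -0.30 and 0 edgeR calls (6 lower and 0 higher at an unadjusted p under 0.05, 4 lower by DESeq2). The median was 0.09 without WT replicate 2, 0.18 with no filter on low counts, -0.05 without WT replicate 1 and -0.94 over genes of at least 5 CPM, so its sign is not stable. The 4 that DESeq2 called were Crtam, Cd226, Cd160 and Hcst, the last 2 named after their values were seen. Crtam, a class I-restricted T cell surface molecule, stood at 1.78 and 2.49 CPM in SRSF1KO, against 11.4, 9.78 and 12.7 CPM in WT (-2.40 ± 0.35, edgeR adjusted p = 0.0581). Cd226, an activating receptor, stood at 33.1 and 44.5 CPM in SRSF1KO and 75.4, 72.9 and 84.9 CPM in WT (-1.002 ± 0.17, edgeR adjusted p = 0.0746). Klrk1, the NKG2D gene, overlapped between the groups at 4.52 and 2.83 CPM in SRSF1KO and 0.74, 4.67 and 2.34 CPM in WT. Klra1, named after its values were seen, had 5 and 1 reads in SRSF1KO and 33, 26 and 45 in WT, and passed the filter on low counts through its WT reads. It is among the 7 wholly below WT and the 6 lower at an unadjusted p under 0.05, where it carries no weight of its own. Reads of the Klra and Klrb1 families can be split between near-identical genes, so their values are less certain.

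Effector transcription factors had a median log2 fold change of 0.01 over the 23 of 24 that entered the fit, with 0 edgeR calls (4 lower and 3 higher at an unadjusted p under 0.05, 3 lower and 2 higher by DESeq2). That median was -0.22 without SRSF1KO replicate 2. Foxo1, which maintains the naive state and homing of T cells, stood at 27.9 and 35.4 CPM in SRSF1KO and 64.7, 77.6 and 60.8 CPM in WT (-1.10 ± 0.18, edgeR adjusted p = 0.0712). Irf4, which T cell receptor signals induce, stood at 5.24 and 4.50 CPM in SRSF1KO and 16.3, 23.1 and 11.7 CPM in WT (-1.80 ± 0.36, edgeR adjusted p = 0.1097).

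Cytokine and chemokine receptors of effector cells had a median of -0.39 over 22 genes, 7 wholly below and 1 wholly above WT, with 0 edgeR calls (6 lower and 1 higher at an unadjusted p under 0.05, and the same numbers by DESeq2). Il2rb, the chain shared by the receptors for interleukin 2 and interleukin 15, stood at 88.2 and 140 CPM in SRSF1KO, against 224, 248 and 257 CPM in WT (-1.09 ± 0.19, edgeR adjusted p = 0.0816, DESeq2 adjusted p = 2.7e-06). Ccr7, a homing receptor of naive and maturing T cells, stood at 220 and 350 CPM in SRSF1KO and 535, 618 and 557 CPM in WT (-0.998 ± 0.19, edgeR adjusted p = 0.0964). Xcr1, the receptor of Xcl1, which was named after its values were seen, had 0 and 1 reads in SRSF1KO and 50, 57 and 29 reads in WT. Xcr1 passed the filter on low counts through its WT reads. It is among the 7 wholly below WT, the 6 lower at an unadjusted p under 0.05 and the 6 that DESeq2 called lower. In these counts it carries no weight of its own.

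**Figure D3:**
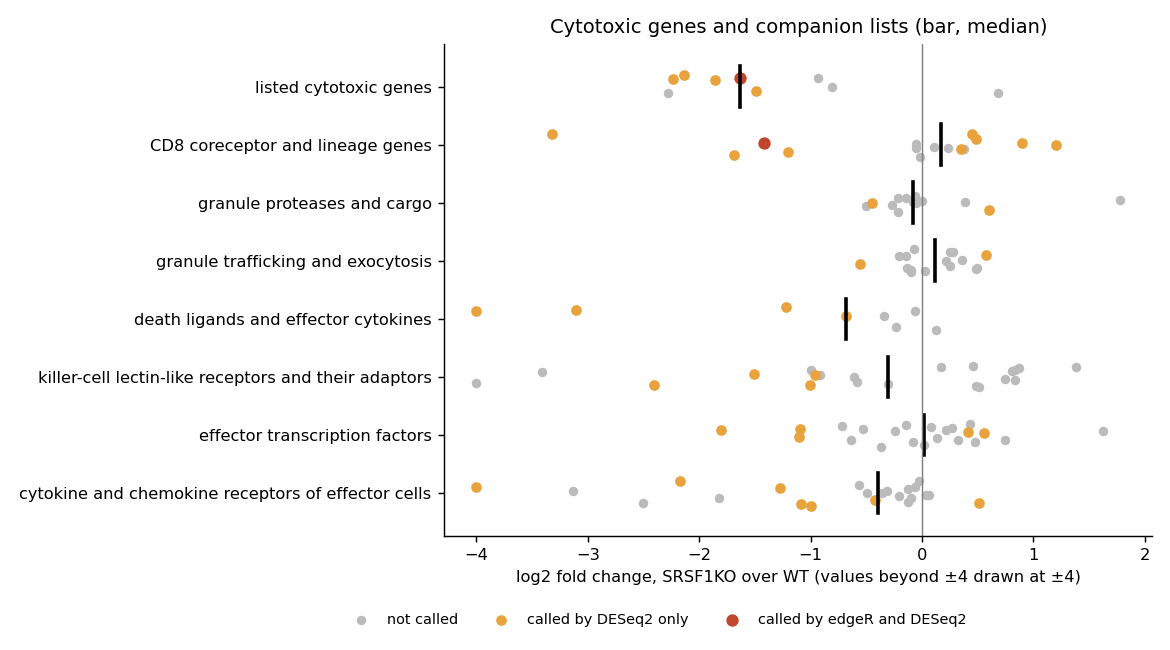
Log2 fold change of SRSF1KO over WT (x axis) for the fitted genes of the listed cytotoxic set and of 7 companion lists (rows), each point a gene, with the list's median as a bar, values beyond the axis drawn at its end, and colour showing genes called by DESeq2 alone (orange) or by edgeR and DESeq2 (red). The median of the cytotoxic set lies at -1.63 and those of the companion lists between -0.68 and 0.17, and edgeR called 1 gene in the set (Cd7) and 1 in the companion lists (Ctsw).

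**Figure D4:**
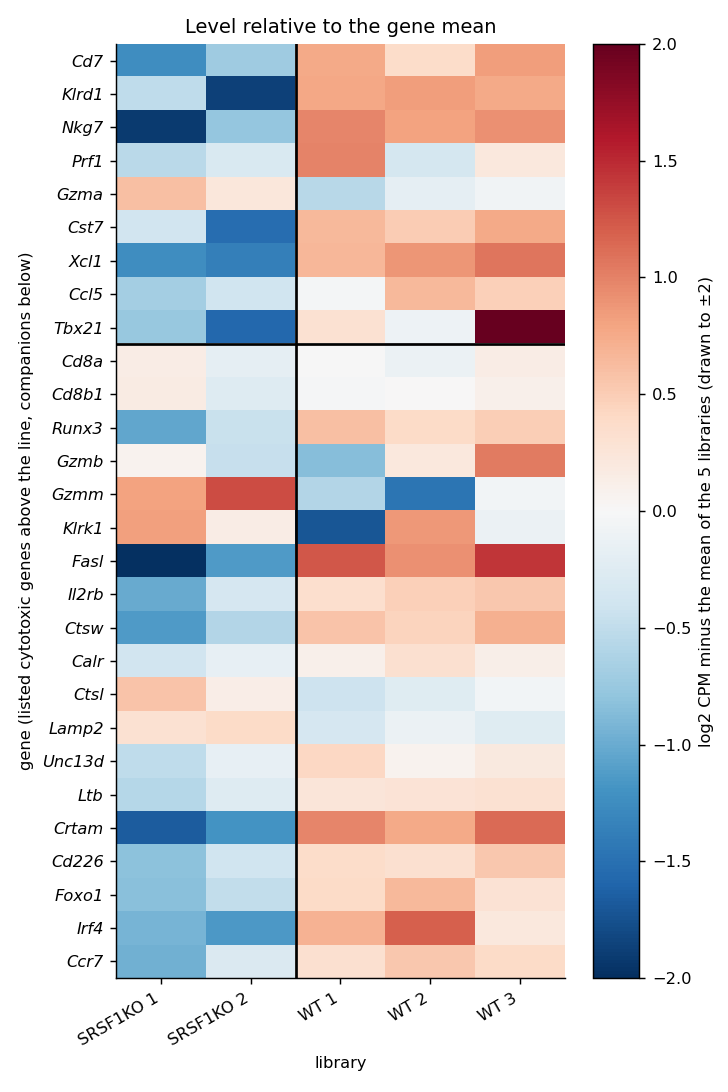
Log2 CPM of each gene minus its mean over the 5 libraries (colour, limited at 2 log2 units), for the 9 listed cytotoxic genes above the line and the companions below it that the naming rule picked, with SRSF1KO libraries left and WT libraries right. Nkg7, Cd7, Runx3, Il2rb, Ctsw and Ccr7 are lowest in SRSF1KO replicate 1, Klrd1, Cst7 and Tbx21 in replicate 2, and Gzma is highest in the SRSF1KO libraries.

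Markers of other cell types were read in sum per library. The 8 natural killer cell markers summed to 24.7 and 19.6 CPM in SRSF1KO replicates 1 and 2 and to 10.1, 18.5 and 24.4 CPM in WT replicates 1, 2 and 3, and the groups overlapped. Most of each sum came from Tyrobp, Fcer1g and Fcgr3, so the sum says little of the other markers in that list. Of the defining genes of natural killer cells, Klra4 was at 0 in every library, and Ncr1 had 0 and 14 reads in SRSF1KO and 4, 0 and 0 in WT. Klrb1c stood at 2.69 and 0.78 CPM in SRSF1KO and 0.79, 1.29 and 3.77 CPM in WT, which overlap. The 6 gamma-delta T cell markers summed to 114 and 104 CPM in SRSF1KO, above the 58.9, 78.8 and 97.5 CPM of WT. Without Trdc the other 5 summed to 57.4 and 59.7 CPM in SRSF1KO and 31.5, 48.2 and 65.4 CPM in WT, which overlap. The 6 iNKT cell markers summed to 366 and 452 CPM in SRSF1KO and 433, 410 and 422 CPM in WT, and their genes went both ways. Cd1d1 and Slamf1 carried most of each sum and overlapped between the groups, so the sum says little of the other markers. Trav11 had 3 and 1 reads in SRSF1KO and 2, 3 and 1 in WT. Zbtb16 had 1 and 1 reads in SRSF1KO and 17, 44 and 7 in WT, and Icos was also wholly below WT, whereas Il17rb stood at 41.4 and 53.0 CPM in SRSF1KO, above the 41.1, 40.9 and 36.5 CPM of WT.

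The 5 erythroid markers summed to 95.2 and 22.2 CPM in SRSF1KO and 7.55, 11.1 and 1.53 CPM in WT, above WT in both SRSF1KO libraries. B cell markers summed to 762 and 559 CPM in SRSF1KO and 492 to 567 CPM in WT, most of it from Ighm, at 713 and 515 CPM in SRSF1KO and 463 to 517 CPM in WT. Myeloid and dendritic cell markers summed to 117 and 110 CPM in SRSF1KO and 89.9 to 113 CPM in WT, and thymic epithelial markers to at most 5.33 CPM in any library. Regulatory T cell markers summed to 198 and 199 CPM in SRSF1KO and 168 to 190 CPM in WT, above WT in both through Ikzf2 (166 and 178 CPM in SRSF1KO and 158, 146 and 136 CPM in WT). Without Ikzf2 they summed to 31.5 and 21.4 CPM in SRSF1KO and 31.4, 36.2 and 31.7 CPM in WT, and Foxp3 and Ctla4 had log2 fold changes of -0.93 and -0.70 with overlapping groups. Early thymocyte markers summed to 140 and 244 CPM in SRSF1KO and 184 to 216 CPM in WT, most of it from Il7r, at 82.8 and 192 CPM in SRSF1KO. Their genes went both ways, with Kit wholly below WT (log2 fold change -1.17) and Ptcra wholly above (0.67). The part of any of these cells in the levels of the cytotoxic genes was not tested.

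**Figure D5:**
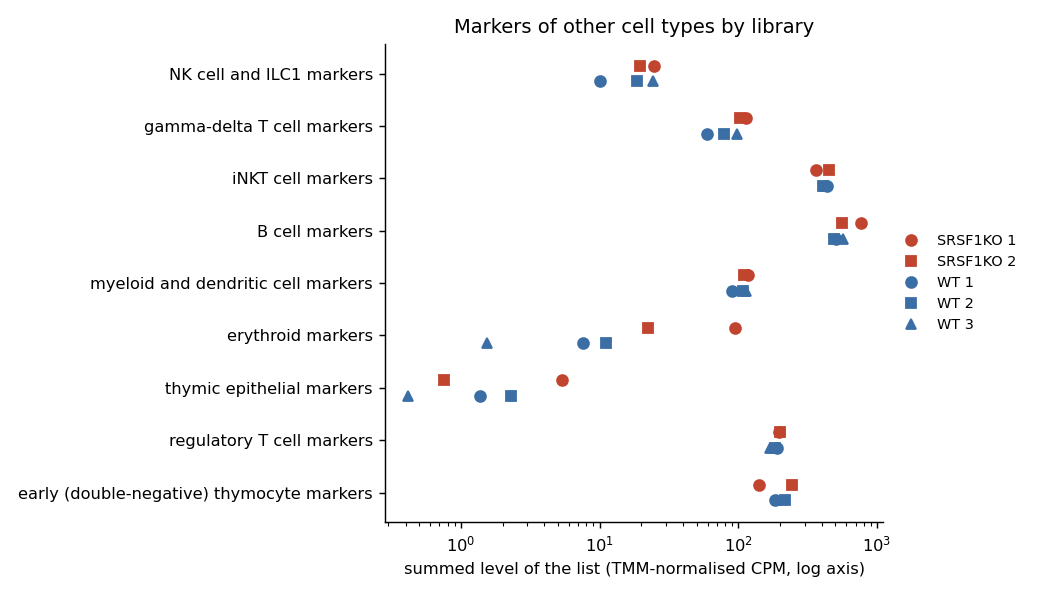
Summed level of each marker list in TMM-normalised CPM (x axis, log scale) per library, SRSF1KO in red above WT in blue. The SRSF1KO libraries lie above all WT libraries for the erythroid (95.2 and 22.2 CPM), gamma-delta T cell (114 and 104 CPM) and regulatory T cell (198 and 199 CPM) lists, and the groups overlap for the other lists. Without Trdc the gamma-delta sums overlap, and the regulatory T cell sum is mostly Ikzf2.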

How the data were processed

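Bulk RNA-seq libraries of sorted thymocytes were made by the Smart-seq2 protocol, per the labels, from 2 SRSF1KO and 3 WT samples. The authors deposited raw counts of reads per gene for 53715 versioned Ensembl IDs, with no normalisation. The submitters' processing notes name the build mm10 and tools that include HTSeq 0.6.1. The strand setting, the RNA-seq aligner and the annotation were not given in the sources used here. Reads of overlapping genes therefore cannot be told apart. The IDs were matched to symbols by stable ID, and 53620 matched, among them all 10 listed genes. Promoters and coordinates are RefSeq's for GRCm38.p6.

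Counts were tested with edgeR 4.0.16 in R 4.3.3 (filterByExpr, TMM, robust glmQLFit and glmQLFTest, group as the only term), with two-sided p-values adjusted by Benjamini-Hochberg over 17351 genes and called under 0.05. The fitted biological coefficient of variation came to 0.494. Standard errors come from the fold change and the F statistic. DESeq2 1.42.0 and limma-voom (limma 3.58.1) were alternatives, with other scalings and filters, a replicate block, a term for the sex-linked pattern and omission of each library. Centred profiles used log2 CPM with a prior count of 2. The scripts were tested on simulated data.

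The 10 genes and the companion and marker lists were chosen with earlier results of these data known. Named companions are up to 4 edgeR-called genes per list, or the smallest p up to 2, plus Cd8a, Cd8b1, Runx3, Gzmb, Gzmk, Gzmm, Klrk1, Ifng, Fasl and Il2rb, and the 5 nearest profiles of at least 5 CPM on average, leaving out sex-linked genes, pseudogenes, predicted genes and receptor segments. Genes outside this rule are marked where they are named. Depth limits the low genes, since counting error alone is large where a library holds few reads.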

Additional observations from a re-analysis of the deposited data

How the results depend on the processing

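The 9 fitted genes kept their directions under every alternative tried, Gzma above 0 and the other 8 below it. Their median log2 fold change, -1.63 in the reported fit, was -1.19 over the 6 genes that averaged 5 CPM or more and -1.34 within the male pattern, fewer genes or libraries in both cases, and it lay between -1.93 and -1.42 with 1 library left out, where Eomes entered the fits without an SRSF1KO library. Over the same 9 genes it lay between -1.76 and -1.30. The number of listed genes called lower was 0 with DESeq2's size factors, with the replicate block and with the sex-linked pattern term, 2 (Nkg7 and Cd7) with no filter on low counts, with a 5 CPM minimum mean and with limma-voom, and 5 with DESeq2. It was 0 to 2 with 1 library left out (0 without any of the WT libraries, 1 without SRSF1KO replicate 1, which was Nkg7, and 2 without SRSF1KO replicate 2), and 0 were called higher throughout.

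Over all genes the calls lower and higher numbered 37 and 9 in the reported fit, 7 and 3 with DESeq2's size factors, 346 and 198 with no filter, 233 and 143 with a 5 CPM minimum mean, 633 and 383 with DESeq2, 71 and 23 with limma-voom, 0 and 0 with the replicate block (914 and 726 at an unadjusted p under 0.05) and 5 and 0 with the sex-linked pattern term. Leaving out 1 library gave 0 to 67 lower and 0 to 21 higher, with 0 for each WT library. The companion genes called lower and higher numbered 0 and 0 with DESeq2's size factors, 16 and 8 with no filter, 14 and 8 with a 5 CPM minimum mean, 23 and 10 with DESeq2, 6 and 2 with limma-voom, 0 and 0 with the replicate block and 0 and 0 with the sex-linked pattern term. With 1 library left out they were 0 to 6 lower and 0 higher. The cause of these shifts was not tested.

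Small differences changed sign, and so did the medians of 3 companion lists, as given beside them. Cd8a was at 0.0015 with upper-quartile scaling, 0.044 with the replicate block, and -0.19 to 0.15 with 1 library left out. With 1 library left out, Cd8b1 lay between -0.28 and 0.16 and Gzmb between -0.86 and 0.073. Gzmb was at 0.13 with the replicate block. The replicate numbers only name the samples, and the difference between replicates 1 and 2 in SRSF1KO correlated with that in WT at 0.004 across genes. Where 1 SRSF1KO library is left, its spread is taken to be that of WT.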
